A study of Mus musculus with 16 samples.

Results

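Cadherins are membrane proteins that join neighbouring cells through calcium-dependent contacts of their extracellular repeats, and the classical types anchor those contacts to actin through catenins. Protocadherins carry similar repeats with a different cytoplasmic tail, bind weakly, and are best known for sorting and recognition between neurons. The clustered protocadherins (Pcdha, Pcdhb and Pcdhg) are arrays of isoforms with promoters of their own, and cells choose among them. Mesenchymal cells are known for Cdh11 and Cdh2, and in fat and vessel walls the unusual cadherin Cdh13 binds the adipocyte hormone adiponectin.

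The genes described are the rows of the deposited table whose symbol is Cdh followed by digits alone, or starts with Pcdh, leaving out Cdh1, Cdh3 and Cdh5. They numbered 90 of 27179 rows: 20 Cdh genes, 12 unclustered protocadherins and 58 clustered ones, of which 14 were Pcdha, 22 Pcdhb and 22 Pcdhg. The rule also takes genes that are not classical cadherins, such as Cdh13, which has a lipid anchor in place of a tail, Cdh16 and Cdh17, and the long hair-cell cadherin Cdh23. RNA-seq was made on 4 populations of Pdgfrb+ cells sorted by FACS from epididymal white adipose tissue of C57BL/6 mice at postnatal day 7, and no group carried a genetic change or treatment that the labels name. The populations were adipocyte precursor cells (APCs), fibro-inflammatory progenitors (FIPs), mesothelial-like cells (MLCs) and smooth muscle cells (SMCs), with 4 libraries each. The labels do not say whether the 4 are separate animals or sorts, and if they are not, the p-values reflect technical spread alone.

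The libraries held 9.205 to 27.5 M reads, and SMCs replicate 3 (9.205 M) and APCs replicate 4 (11.2 M) were the shallowest. Summed markers of each label were highest where the label puts them. Summed mesothelial markers were 141526 to 145668 normalized counts in MLCs and at most 14042 as a mean elsewhere. Summed contractile markers were highest in SMCs (11127 to 16092), followed by MLCs (9331 to 10185). Summed adipocyte precursor markers were highest in APCs (175194 to 197129.5) and interstitial progenitor markers in FIPs (50302 to 55123). Col15a1 was 61.05% and Lpl 29.95% of the adipocyte precursor sum in APCs. Some single markers did not follow their sum by mean. Dpp4 was 2053 in FIPs and 8805 in MLCs, and Icam1 9929 in APCs and 10107 in SMCs. Myh11 was 1262 in SMCs and 1288 in MLCs, and Smtn 4227 in SMCs and 5528 in MLCs. The other markers of these lists had their highest mean where their sum did. In such bulk samples, fewer cells expressing a gene and less RNA per cell cannot be told apart.

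Among the 32 unclustered genes, called differences were most frequent in the pairs with MLCs, as they were over all genes: Cdh11, Cdh2 and Pcdh15 were higher there and Cdh13, Pcdh18 and Pcdh19 lower. Values are normalized counts, which are reads per gene divided by 1 size factor per library, so they compare libraries but not genes of different length. A gene entered the test when 4 or more of the 16 libraries reached 10, and was called between 2 populations at a Benjamini-Hochberg adjusted p under 0.05 in limma and a log2 fold change of at least 1 in size. Of the 32, 26 were tested. Cdh7, Cdh9, Cdh15, Cdh20, Cdh22 and Cdh26 were not, with highest single values of 2.13, 5.34, 17.1, 3.20, 6.70 and 28.4. The counts below are a description of the tested genes. Of the 26, 15 reached 10 in all 16 libraries, while Cdh12 and Cdh17 passed through 1 population alone and so had to differ. Cdh10 reached 10 in 4 FIPs and 2 SMCs libraries, Cdh18 in 4 APCs and 1 SMCs, and Cdh19 in 4 SMCs and 1 APCs. These 3 genes therefore passed only with the population where they were high, and their calls for it are no support. Cdh16 passed only with FIPs and MLCs together (2 and 3 libraries), where it was high, so its calls for them are no support either.

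Between MLCs and SMCs, 20 of 26 tested genes were called, against 27.9% of all 15024 genes tested: 9 higher in MLCs (14.4% of all genes) and 11 higher in SMCs (13.5%). Between APCs and MLCs, 18 were called (29.6% of all genes), with 9 higher in APCs (11.8%) and 9 higher in MLCs (17.7%). FIPs and MLCs gave 17 (31.1%), with 9 higher in FIPs (12.5%) and 8 higher in MLCs (18.6%). The counts against MLCs were split about evenly between directions, though after quantile normalization they were 12 higher in APCs against 7 in MLCs, and 9 higher in FIPs against 6. The split of all called genes moved the same way. The share higher in APCs was then 49.79% (40.0% before), and the share higher in FIPs 49.33% (40.16% before). The median log2 fold change of the 26 was 0.06 for APCs over MLCs, -0.07 for FIPs over MLCs and 0.43 for MLCs over SMCs, beside medians of -0.02, -0.02 and 0.04 over all genes. Between FIPs and SMCs, 13 were called (17.9%), with 4 higher in FIPs (4.6%) and 9 higher in SMCs (13.3%), a split of 6 and 6 after quantile normalization. APCs and SMCs gave 10 (17.2%), with 3 higher in APCs (3.79%) and 7 higher in SMCs (13.5%), a split of 5 and 4 after quantile normalization. Of all genes called against SMCs, 45.61% were then higher in FIPs (25.66% before) and 44.5% higher in APCs (21.97% before). The closest pair was APCs and FIPs, with 9 called (10.4%), 5 higher in APCs (5.22%) and 4 higher in FIPs (5.2%), a split of 6 and 4 with equal library totals. Of all genes called in this pair, 67.51% were then higher in APCs (50.13% before). In at least 1 of the 6 pairs 25 of the 26 were called, beside 42.5% of all genes, and Pcdh7 was the exception.

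**Figure D1:**
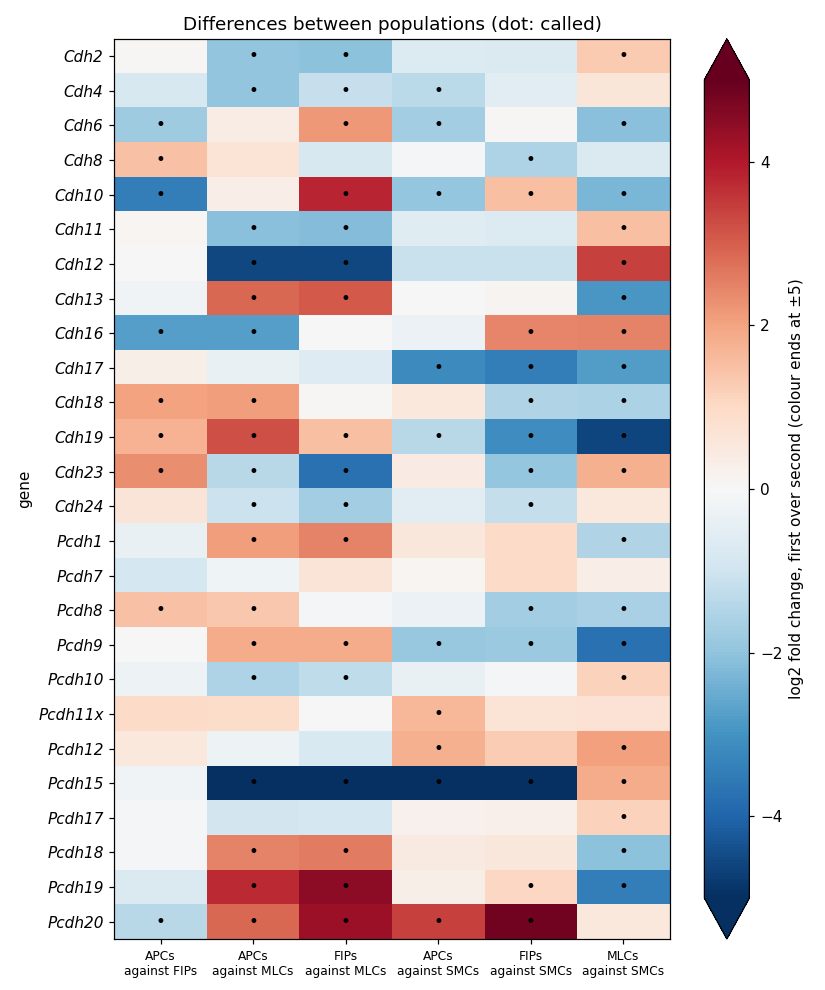
Log2 fold changes of the 26 tested unclustered genes (rows) in the 6 pairs of populations (columns); red is higher in the first population named, blue in the second, the colour scale ends at 5 in either direction, and a dot marks a called difference. In the columns of APCs and of FIPs against MLCs, Pcdh18, Pcdh19 and Cdh13 are red and Cdh11, Cdh2 and Pcdh15 blue, and Pcdh7 has no dot in any column.

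Among the type II classical cadherins, Cdh11 (OB-cadherin, the main cadherin of mesenchyme) was the most abundant unclustered gene per kilobase of exon in each population. It lies on chromosome 8, 102632095 to 102785493 on GRCm38. Gene spans here and below are by RefSeq, and exon lengths by GENCODE vM21. Its mean normalized counts per kilobase were 516 (APCs), 486 (FIPs), 2174 (MLCs) and 777 (SMCs). By library, Cdh11 stood at 19745, 18714, 19924 and 19058 normalized counts in MLCs. SMCs held 7363, 7501, 6608 and 6210.5, APCs 4097, 4401, 4542 and 5319, and FIPs 4556, 3925, 4466 and 4361. Population means were 4589.6 ± 521 (APCs), 4327 ± 279.8 (FIPs), 19360.3 ± 569.8 (MLCs) and 6920.5 ± 615 (SMCs) (± SD, n = 4, here and for later means). Every MLCs library lay above all 12 others, and every SMCs library above all APCs and FIPs libraries, while APCs and FIPs overlapped. The mean in MLCs was 4.22 times that in APCs and 2.798 times that in SMCs, with log2 fold changes of 2.08 (SE 0.076, adjusted p = 5.35e-15) and 1.49 (SE 0.076, adjusted p = 1.67e-12) in limma. The excess of SMCs over APCs was smaller, at 0.59 (SE 0.076, adjusted p = 2.28e-06), and under the fold threshold.

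Cdh2 (N-cadherin, a type I classical cadherin of mesenchyme, muscle and neurons) was highest in MLCs as well. MLCs libraries held 462, 492, 437 and 404 normalized counts, SMCs 225, 154, 235 and 128, APCs 94.7, 97.7, 101 and 169, and FIPs 94.97, 105, 118 and 111. This gave means of 116 ± 35.96 (APCs), 107 ± 9.83 (FIPs), 449 ± 37.5 (MLCs) and 185 ± 52.8 (SMCs). All MLCs libraries were above the rest, and SMCs overlapped APCs through APCs replicate 4, which was far above the other 3 APCs libraries. In log2 fold change MLCs stood at 1.99 (SE 0.19, adjusted p = 1.74e-08) over APCs and 1.31 (SE 0.19, adjusted p = 5.69e-06) over SMCs in limma. Cdh4 (R-cadherin, the closest relative of N-cadherin) was highest in MLCs too, at 57.8, 53.3, 74.5 and 57.2. Its values were 45.3, 45.9, 57.6 and 19.4 in SMCs, 20.8, 23.1, 28.6 and 34.5 in FIPs and 13.5, 13.1, 17.2 and 15.6 in APCs. On average it stood at 14.8 ± 1.89 (APCs), 26.8 ± 6.11 (FIPs), 60.7 ± 9.41 (MLCs) and 42.1 ± 16.1 (SMCs). SMCs overlapped both MLCs and FIPs, and the log2 fold changes of MLCs over APCs and FIPs were 1.96 and 1.17, both called, while that over SMCs (0.61, SE 0.28, adjusted p = 0.0598) was not. After quantile normalization the value for FIPs over MLCs was -0.64, under the fold threshold.

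Cdh24, a type II cadherin that binds catenins, varied widely within APCs. Its normalized counts were 255, 201, 152 and 100.3 in APCs, 112, 118, 98.3 and 99.8 in FIPs, 381, 374, 332 and 339 in MLCs and 235, 251, 273 and 222 in SMCs. The means of the 4 libraries were 177 ± 66.4 (APCs), 107 ± 9.64 (FIPs), 356 ± 24.6 (MLCs) and 245 ± 22.2 (SMCs). MLCs lay above all other libraries, and APCs spanned the range from FIPs to SMCs. FIPs were below MLCs by -1.73 (SE 0.19, adjusted p = 1.16e-07) on the log2 scale, and below SMCs, with -1.19, both called in limma. The second was -0.95 after quantile normalization. The APCs value against MLCs (-1.08, SE 0.19, adjusted p = 4.83e-05) was called with all libraries but was -0.84 without APCs replicate 4, under the fold threshold. It was also under that threshold in edgeR (-0.985) and after quantile normalization (-0.92).

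Cdh6 and Cdh8, type II cadherins known from kidney and brain, had other orders. Cdh6 held 61.3, 62.9, 60.1 and 75.3 normalized counts in FIPs and 103, 52.3, 55.5 and 49.05 in SMCs, where replicate 1 stood alone. APCs held 24.5, 16.1, 15.7 and 17.3 and MLCs 12.6, 9.300, 19.9 and 14.97. Averaged by population, values were 18.4 ± 4.12 (APCs), 64.9 ± 6.999 (FIPs), 14.2 ± 4.47 (MLCs) and 65.01 ± 25.6 (SMCs). FIPs and SMCs did not differ beyond their spread (0.06, adjusted p = 0.86), nor did APCs and MLCs (0.38, adjusted p = 0.206), and every FIPs and SMCs library was above every APCs and MLCs library. FIPs exceeded APCs by 1.78 (SE 0.26, adjusted p = 1.58e-05) on the log2 scale in limma. Cdh8 was high in APCs and SMCs instead, with 47.3, 56.4, 55.05 and 58.8 in APCs and 65.3, 45.9, 53.4 and 62.3 in SMCs, against 27.6, 39.8, 45.7 and 24.6 in MLCs and 17.8, 19.4, 12.4 and 29.02 in FIPs. Mean values were 54.4 ± 4.96 (APCs), 19.7 ± 6.92 (FIPs), 34.4 ± 9.96 (MLCs) and 56.7 ± 8.82 (SMCs). FIPs were below APCs by -1.48 (SE 0.24, adjusted p = 6.57e-05) on the log2 scale, without overlap, and MLCs lay between and overlapped FIPs.

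Some cadherins were near the limit of detection, and their values rest on few reads. Cdh10, a type II cadherin of brain, was called higher in FIPs than in each other population, with means of 1.71 ± 1.401 (APCs), 25.8 ± 5.71 (FIPs), 1.303 ± 1.68 (MLCs) and 8.64 ± 3.13 (SMCs). For FIPs the log2 fold change was 3.47 (SE 0.55, adjusted p = 3.69e-05) over APCs. That over SMCs (1.52, SE 0.55, adjusted p = 0.025) was lost in limma without FIPs replicate 1 (1.43), FIPs replicate 2 (1.45) or SMCs replicate 3 (1.25). Cdh12, another neuronal type II cadherin, had 111 reads in the 4 MLCs libraries together, 4 in SMCs and 0 in APCs and FIPs. With a floor of 3 reads over a group for counting error alone, MLCs were at least 31.6-fold higher than APCs and at least 32.3-fold higher than FIPs. MLCs libraries held 31.00, 18.6, 22.9 and 18.5 normalized counts. Cdh12 entered the test through MLCs alone. Without SMCs replicate 1 both APCs and FIPs were called lower than SMCs (-1.49 each). Cdh18 means were 11.8 ± 1.16 (APCs), 2.804 ± 1.99 (FIPs), 2.36 ± 1.91 (MLCs) and 8.88 ± 4.55 (SMCs). APCs exceeded FIPs and MLCs in Cdh18 by log2 fold changes of 2.001 and 2.08. SMCs exceeded FIPs (1.49) and MLCs (1.56) with overlap. The FIPs call was lost without FIPs replicate 3 (-0.93 for FIPs over SMCs) or SMCs replicate 1 (-1.42), 3 (-1.46) or 4 (-1.23). It was also lost in edgeR (adjusted p = 0.0599), in DESeq2 (adjusted p = 0.0624) and after quantile normalization (-0.52). The MLCs call was lost without MLCs replicate 1 (-1.32) or SMCs replicate 4 (-1.31), and after quantile normalization (-1.24, adjusted p = 0.0645 in limma).

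Cdh19 is a type II cadherin best known as a marker of the Schwann cell lineage. It had 0 reads in MLCs, and values of 36.9, 10.7, 34.2 and 21.5 in SMCs, 3.38, 8.06, 9.29 and 17.3 in APCs and 1.98, 2.77, 1.91 and 0.91 in FIPs. Over MLCs, with the same floor of 3 reads over the group, SMCs were at least 39.9-fold, APCs at least 13.7-fold and FIPs at least 3.06-fold higher. All 6 pairs were called, though Cdh19 passed the filter only with SMCs. SMCs and APCs overlapped, and that call (1.39, SE 0.48, adjusted p = 0.0205) was lost without APCs replicate 1 (-1.03 for APCs over SMCs), SMCs replicate 1 (-1.17) or SMCs replicate 3 (-1.21). The summed level of 8 Schwann and neural crest markers, none at 0 in all libraries, was 1042 to 1269.8 in SMCs, 1488 to 1784 in APCs, 384 to 509 in FIPs and 349 to 457 in MLCs. The sum was mostly Ngfr, 88.8% of it in APCs and 70.3% in SMCs. Of the 5 markers tested between APCs and SMCs, 3 were called higher in SMCs (13.5% of all genes) and 0 higher in APCs (3.79%). They included Gfra3 (means of 0 in APCs and 35.7 in SMCs) and Erbb3 (3.65 and 70.95). The lineage factor Sox10, which was not tested, had means of 0.252 (APCs), 0.462 (FIPs), 1.77 (MLCs) and 29.95 (SMCs), and Foxd3 was at 0 in APCs and FIPs and at 13.9 in SMCs. Gfra3, Erbb3, Sox10 and Foxd3 moved with Cdh19 between APCs and SMCs. Ngfr (means of 1426.8 in APCs and 803.3 in SMCs) and S100b (130.3 and 83.27) went the other way. Erbb3 had its highest mean in MLCs (260.5), where Cdh19 had 0 reads. The part of these markers in the Cdh19 values was not tested.

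The cadherins with unusual tails differed among themselves. Cdh13 (T-cadherin, which is held in the membrane by a lipid and binds adiponectin, chromosome 8, 118140017 to 119324929) was low in MLCs. MLCs libraries held 13.4, 14.4, 14.01 and 21.1 normalized counts. APCs held 116, 102, 142 and 128, FIPs 122, 149.8, 158 and 119.7 and SMCs 127, 122, 119.6 and 123. Population means were 122 ± 17.3 (APCs), 137 ± 19.6 (FIPs), 15.7 ± 3.62 (MLCs) and 123 ± 3.31 (SMCs). All 12 libraries of APCs, FIPs and SMCs were above all MLCs libraries, and those 3 populations overlapped each other. The log2 fold changes over MLCs were 2.89 (SE 0.16, adjusted p = 4.57e-12) for APCs, 3.06 for FIPs and 2.91 for SMCs in limma, all called. Cdh17, the liver-intestine cadherin, was read mainly in SMCs, with libraries at 21.1, 50.2, 14.9 and 17.4, and had means of 2.37, 1.898 and 2.45 in APCs, FIPs and MLCs. SMCs replicate 2 stood above its group. Cdh17 entered the test through SMCs alone, so its calls are no support, and it left the test without any 1 of the SMCs libraries. Cdh16, the kidney cadherin, ranged from 1.91 to 45.5 within FIPs alone. Its means were 0.893 (APCs), 17.6 (FIPs), 13.3 (MLCs) and 2.07 (SMCs). The 4 called pairs were FIPs and MLCs over APCs and SMCs. Cdh16 passed the filter only with FIPs and MLCs, so these calls are no support. The FIPs call over SMCs (2.46, SE 0.79, adjusted p = 0.0131 in limma) was 1.80 and not significant without FIPs replicate 1. It was also not significant in edgeR (1.77, adjusted p = 0.107) or DESeq2 (1.86, adjusted p = 0.101).

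Cdh23 and Pcdh15 are known as partners in the tip links of inner ear hair cells, and both were highest in MLCs. Cdh23 held 80.4, 81.2, 97.4 and 88.03 normalized counts in MLCs, 51.6, 27.2, 32.2 and 24.2 in APCs, 41.1, 32.02, 8.54 and 30.6 in SMCs and 3.96, 6.47, 8.59 and 4.53 in FIPs. This gave means of 33.8 ± 12.3 (APCs), 5.89 ± 2.099 (FIPs), 86.8 ± 7.86 (MLCs) and 28.1 ± 13.8 (SMCs). MLCs were above all other libraries, and FIPs were lowest, overlapping SMCs by SMCs replicate 3. The log2 fold change of MLCs over FIPs was 3.72 (SE 0.37, adjusted p = 3.26e-08), and over APCs 1.39, called in limma (-0.96 for APCs over MLCs after quantile normalization). Pcdh15 (chromosome 10, 73096277 to 74649831) had 2 reads in all APCs and 2 in all FIPs libraries, against 1370 in MLCs and 279 in SMCs. Its normalized counts were 276, 299, 277 and 276 in MLCs and 113, 104, 74.7 and 40.9 in SMCs. Mean values were 0.357 ± 0.715 (APCs), 0.474 ± 0.548 (FIPs), 282 ± 11.3 (MLCs) and 82.95 ± 32.4 (SMCs). The ratio of MLCs to APCs was 584 with a 95% interval of 162 to 4831, and the ratio of SMCs to APCs 174 (47.7 to 1442), intervals for counting error only. MLCs exceeded SMCs by 1.85 (SE 0.38, adjusted p = 0.000279) on the log2 scale in limma, without overlap. With a pseudocount of 0.1 in place of 1, the adjusted p of that comparison was 0.0824. The mesothelial marker sum was also higher in SMCs (11081 to 17153) than in APCs (4090.5 to 4632) and FIPs (3198 to 3765), and its part in the Pcdh15 level of SMCs was not tested.

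**Figure D2:**
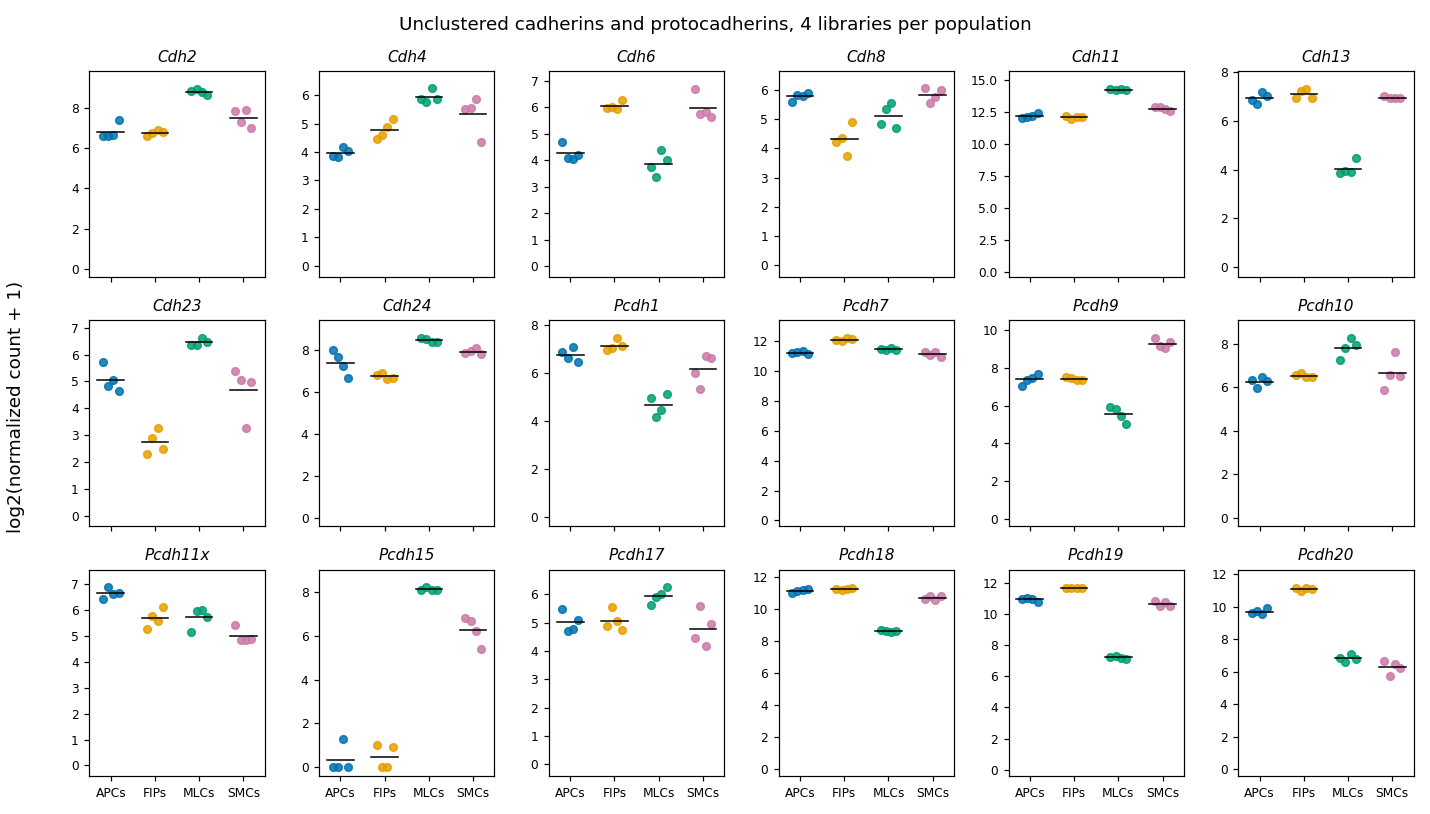
Values of 18 unclustered genes in each library as log2(normalized count + 1) on the vertical axis, with populations on the horizontal axis; points are libraries, 4 per population, and lines are population means of those log2 values. MLCs libraries lie above all others for Cdh11, Cdh2, Cdh23, Cdh24 and Pcdh15 and below all others for Cdh13, Pcdh1, Pcdh9, Pcdh18 and Pcdh19.

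The delta-2 protocadherins carry short conserved tail motifs and several bind the WAVE complex, which drives actin branching. Of these, Pcdh18 and Pcdh19 were abundant everywhere except in MLCs. Pcdh18 (chromosome 3, 49743291 to 49757383) held 414, 403, 386 and 395 normalized counts in MLCs. It held 2076, 2216, 2291 and 2412 in APCs, 2429.8, 2306, 2439 and 2570.1 in FIPs and 1551, 1827, 1535 and 1763 in SMCs. On average it stood at 2249 ± 141 (APCs), 2436 ± 108 (FIPs), 399 ± 11.9 (MLCs) and 1669 ± 148 (SMCs). MLCs were below the rest and SMCs below APCs and FIPs, which overlapped. Per kilobase of exon, Pcdh18 followed Cdh11 among the unclustered genes in APCs, FIPs and SMCs, with mean normalized counts per kilobase of 419 (APCs), 454 (FIPs), 74.4 (MLCs) and 311 (SMCs). The log2 fold changes over MLCs were 2.49 (SE 0.064, adjusted p = 2.41e-17) for APCs, 2.605 for FIPs and 2.06 for SMCs in limma. Pcdh19 (chromosome X, 133582860 to 133689044), mutated in an epilepsy syndrome of girls, held 147, 161, 146 and 137 in MLCs. Its values were 3240.0, 3335, 3276 and 3327 in FIPs, 2050.4, 2137, 1976 and 1752 in APCs and 1809, 1460.0, 1738 and 1501 in SMCs. The means of the 4 libraries were 1979 ± 165 (APCs), 3294 ± 44.8 (FIPs), 148 ± 9.64 (MLCs) and 1627 ± 172 (SMCs). FIPs were above all other libraries and MLCs below all, and FIPs exceeded MLCs by 4.47 (SE 0.075, adjusted p = 4.09e-20) on the log2 scale, 22.3 times the mean. FIPs exceeded SMCs by 1.02, a call lost without SMCs replicate 2 (0.97) or replicate 4 (0.99), with equal library totals (0.80) and after quantile normalization (0.89).

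Because Pcdh18 and Pcdh19 were both low in MLCs and Pcdh15 high there, their promoter windows are shown from RefSeq on GRCm38.p6, 250 bases ending at the base before the listed start, 5′ to 3′ on the gene's strand. Capitals mark matches, on either strand, to the CCAAT box (spelled CCAAT), to the TATA box (TATAAA), to the GC box (GGGCGG) or to the E-box that Snail and Zeb factors bind (CAGGTG). The windows are chr3:49757317-49757566, minus strand, chrX:133688994-133689243, minus strand, and chr10:73821617-73821866, plus strand, a start inside the span given above for Pcdh15. For Pcdh18 and Pcdh19 the RefSeq gene span given above begins upstream of the listed start, within the window.
Pcdh18: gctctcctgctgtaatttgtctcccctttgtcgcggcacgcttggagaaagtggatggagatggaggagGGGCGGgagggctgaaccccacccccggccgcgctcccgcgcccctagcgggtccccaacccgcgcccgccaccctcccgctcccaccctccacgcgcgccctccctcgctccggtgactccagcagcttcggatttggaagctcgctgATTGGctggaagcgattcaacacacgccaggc
Pcdh19: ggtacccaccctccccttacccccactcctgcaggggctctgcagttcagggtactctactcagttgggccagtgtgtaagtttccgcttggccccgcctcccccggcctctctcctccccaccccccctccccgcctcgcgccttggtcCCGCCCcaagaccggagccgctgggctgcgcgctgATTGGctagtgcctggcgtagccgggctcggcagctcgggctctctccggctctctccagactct
Pcdh15: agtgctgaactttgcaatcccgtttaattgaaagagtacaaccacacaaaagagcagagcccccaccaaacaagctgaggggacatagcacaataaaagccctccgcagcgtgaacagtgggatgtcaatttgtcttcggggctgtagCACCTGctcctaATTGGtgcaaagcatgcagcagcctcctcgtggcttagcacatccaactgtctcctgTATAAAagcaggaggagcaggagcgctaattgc
Each held CCAAT in its reverse form, at -32 from the start in Pcdh18, -65 in Pcdh19 and -90 in Pcdh15. The Pcdh18 window held GGGCGG at -181 and the Pcdh19 window CCGCCC at -100. Only the Pcdh15 window of these 3 held TATAAA (-33) and CACCTG (-102). The longest run that the Pcdh18 and Pcdh19 windows share is CGCTGATTGGCT, 12 bases around the reversed CCAAT, which stood in 56 of 32851 windows of the same length (0.17%). In Pcdh18 this run and its CCAAT lie inside the RefSeq gene span given above, and in Pcdh19 they lie upstream of the span. Of all windows 33.85% held CCAAT, 12.37% TATAAA, 32.74% GGGCGG and 17.22% CAGGTG. RefSeq windows were matched for 22 of the 32 unclustered genes, 25 windows in all, and 15, 2, 9 and 3 of these held the 4 motifs in that order. A match is a description of letters and not a bound site.

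Pcdh10 (OL-protocadherin), a delta-2 member that binds the WAVE complex, was highest in MLCs, where Pcdh18 and Pcdh19 were lowest. Its normalized counts were 152, 222, 306 and 248 in MLCs, 56.9, 94.99, 196 and 91.96 in SMCs, 94.97, 98.9, 86.9 and 87.1 in FIPs and 78.6, 62.4, 88.7 and 76.1 in APCs. Averaged by population, values were 76.4 ± 10.8 (APCs), 91.96 ± 5.98 (FIPs), 232 ± 64.04 (MLCs) and 110.1 ± 60.1 (SMCs). MLCs were above all APCs and FIPs libraries, while SMCs replicate 3 reached into the MLCs range. Its log2 fold change in MLCs was 1.56 (SE 0.27, adjusted p = 3.81e-05) over APCs and 1.17 (SE 0.27, adjusted p = 0.00076) over SMCs in limma, the second falling to 0.90 without SMCs replicate 1. Over FIPs it was 1.28, and after quantile normalization FIPs over MLCs was -0.94, under the fold threshold. Pcdh17, a delta-2 gene of neurons and vessels, held 48.6, 58.4, 62.7 and 74.8 in MLCs, 28.7, 45.3, 32.5 and 25.4 in FIPs, 43.1, 25.2, 26.4 and 32.9 in APCs and 21.1, 46.96, 17.1 and 29.6 in SMCs. Mean values were 31.9 ± 8.19 (APCs), 32.96 ± 8.72 (FIPs), 61.1 ± 10.9 (MLCs) and 28.7 ± 13.3 (SMCs). MLCs were above all other libraries, but only the difference from SMCs passed the fold threshold (1.15, SE 0.28, adjusted p = 0.00136), and without SMCs replicate 3 it was 0.95. MLCs against APCs (-0.93 for APCs over MLCs) passed the threshold without APCs replicate 1 (-1.08) or MLCs replicate 1 (-1.03), against FIPs (-0.89) without FIPs replicate 2 (-1.05), and both with equal library totals (-1.02 and -1.22). Pcdh8 (paraxial protocadherin) was less abundant, with means of 34.4 ± 6.55 (APCs), 12.1 ± 3.24 (FIPs), 13.03 ± 3.105 (MLCs) and 42.2 ± 7.58 (SMCs), and was called higher in both APCs and SMCs than in either FIPs or MLCs.

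The delta-1 protocadherins, which can bind a phosphatase through their tails, also split. Pcdh9 (chromosome 14, 93013700 to 93892834) held 756, 561, 523 and 662 normalized counts in SMCs. APCs held 130.2, 165, 177 and 202, FIPs 180.1, 174, 159 and 161 and MLCs 58.6, 55.8, 42.04 and 31.7. Population means were 169 ± 30.01 (APCs), 168 ± 10.1 (FIPs), 47.05 ± 12.6 (MLCs) and 626 ± 105 (SMCs). SMCs were above and MLCs below all other libraries, and APCs and FIPs overlapped. SMCs had a log2 fold change for Pcdh9 of 1.89 (SE 0.17, adjusted p = 3.06e-08) over APCs and 3.73 over MLCs in limma. Pcdh1, a protocadherin of airway epithelium, held 30.2, 16.9, 20.6 and 33.5 in MLCs, 122, 128, 173 and 139 in FIPs, 114, 97.7, 132 and 86.5 in APCs and 63.2, 39.5, 102 and 96.05 in SMCs. This gave means of 107 ± 19.7 (APCs), 140.2 ± 22.9 (FIPs), 25.3 ± 7.79 (MLCs) and 75.3 ± 29.4 (SMCs). MLCs were below all others, and FIPs exceeded them by 2.46 (SE 0.27, adjusted p = 9.14e-08) on the log2 scale. FIPs over SMCs was just under the fold threshold (0.97, SE 0.27, adjusted p = 0.00468) and passed it without FIPs replicate 1 (1.03), FIPs replicate 2 (1.01), SMCs replicate 3 (1.15) or SMCs replicate 4 (1.12), and after quantile normalization (1.404).

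Pcdh7 (BH-protocadherin, chromosome 5, 57716145 to 58133236) was called in no pair although it was among the most abundant. It held 4314, 4210.2, 4676 and 4508 normalized counts in FIPs, 2802, 2699, 2946 and 2753 in MLCs, 2326, 2432, 2571 and 2219 in APCs and 2452, 2121, 2507 and 1964 in SMCs. On average it stood at 2387 ± 150.4 (APCs), 4427 ± 207 (FIPs), 2800.1 ± 106 (MLCs) and 2261 ± 261 (SMCs). FIPs were above all other libraries, and its log2 fold changes of 0.89 (SE 0.070, adjusted p = 4.71e-09) over APCs and 0.97 (SE 0.070, adjusted p = 7.61e-10) over SMCs missed only the fold threshold. Per kilobase of exon its mean normalized counts were 225 (APCs), 418 (FIPs), 264 (MLCs) and 213 (SMCs), second to Cdh11 among the unclustered genes in MLCs. The log2 fold change over SMCs was 1.02 without SMCs replicate 1 and 1.03 without SMCs replicate 3. Another gene overlaps 21.1% of the exon bases of Pcdh7, and how the counting treated such reads is not given in the sources used here. Pcdh11x, an X-linked member, was highest in APCs, at 85.4, 117, 97.2 and 100.3. MLCs held 34.4, 61.7, 63.4 and 52.8, FIPs 37.6, 53.6, 46.8 and 68.9 and SMCs 42.1, 27.8, 27.8 and 28.6. The means of the 4 libraries were 99.9 ± 12.97 (APCs), 51.7 ± 13.2 (FIPs), 53.1 ± 13.3 (MLCs) and 31.6 ± 7.05 (SMCs). APCs were above all other libraries, and only their excess over SMCs was called (1.65, SE 0.22, adjusted p = 4.59e-06). Over FIPs (0.96) the value passed the fold threshold without APCs replicate 1 (1.03) or FIPs replicate 4 (1.11), and over MLCs (0.93) without APCs replicate 1 (1.002), MLCs replicate 2 (1.01) or MLCs replicate 3 (1.03).

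Pcdh20 (chromosome 14, 88464743 to 88471396), a protocadherin known from the nervous system, was highest in the progenitor populations. FIPs held 2309, 1975, 2291 and 2196 normalized counts and APCs 776, 855, 739 and 965. MLCs held 114, 94.7, 134 and 111 and SMCs 101, 52.3, 87.5 and 75.6. Averaged by population, values were 834 ± 99.9 (APCs), 2193 ± 154 (FIPs), 114 ± 16.2 (MLCs) and 79.1 ± 20.7 (SMCs). FIPs were above all APCs libraries, and APCs above all MLCs and SMCs libraries, which overlapped each other. The log2 fold change of FIPs was 1.399 (SE 0.15, adjusted p = 3.89e-07) over APCs, 4.27 over MLCs and 4.81 over SMCs in limma, all called. Pcdh20 and Cdh10 were the 2 unclustered genes called higher in FIPs than in each other population, and Cdh10 passed the filter only with FIPs. Pcdh12, an endothelial protocadherin, had means of 13.03 ± 3.19 (APCs), 10.2 ± 6.805 (FIPs), 16.2 ± 7.46 (MLCs) and 5.52 ± 6.400 (SMCs), and was called lower in SMCs than in APCs (-1.79, SE 0.66, adjusted p = 0.0274) and MLCs, with overlap in both. The APCs call was lost without APCs replicate 1 (1.67 for APCs over SMCs), SMCs replicate 1 (1.47) or SMCs replicate 3 (1.13). It was also lost in edgeR (1.11, adjusted p = 0.163) and DESeq2 (1.14, adjusted p = 0.138). In limma it was lost with only these 2 populations in the fit (adjusted p = 0.0667) and with a pseudocount of 8 (0.74). The MLCs call was lost in edgeR (1.35 for MLCs over SMCs, adjusted p = 0.0506) and with a pseudocount of 8 (0.92). FIPs over SMCs (1.28) was called without FIPs replicate 1 (1.70) or SMCs replicate 2 (1.91). The sum of 9 endothelial markers was 7856 to 8693 in FIPs, 4782 to 5685 in MLCs, 2240.2 to 2441 in SMCs and 1086 to 1503 in APCs, none of the 9 at 0 in all libraries. Tek was 95.7% of that sum in FIPs, and Kdr and Esam 47.0% and 46.2% in MLCs. By gene, 4 of the 9 were called higher in APCs than in SMCs (3.79% of all genes) and 3 lower (13.5%). Between MLCs and SMCs, 7 were called higher in MLCs (14.4%) and 1 lower (13.5%). Pecam1 means were 101.7 (APCs), 87.8 (FIPs), 102.2 (MLCs) and 30.6 (SMCs), and the part of these markers in the Pcdh12 values was not tested.

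Counted by population, MLCs were called against all 3 others for 12 of the 26 tested unclustered genes. Cdh11, Cdh12, Cdh2, Cdh23, Pcdh10 and Pcdh15 were higher there (10.6% of all genes tested), and Cdh13, Cdh19, Pcdh1, Pcdh18, Pcdh19 and Pcdh9 lower (7.89%). SMCs were called higher than all 3 others for Cdh17, Cdh19 and Pcdh9 (2.75% of all genes), FIPs higher for Cdh10 and Pcdh20 (1.5%) and lower for Cdh23 (1.96%). None of the 26 was called higher or lower in APCs than in all 3 others (1.07% and 1.84% of all genes), or lower in SMCs (0.313%). Cdh12 and Cdh17 had to differ, since they passed the filter through the population where they were high. Cdh10 passed only with FIPs and Cdh19 only with SMCs, so their calls as higher there are no support. The sum of 8 epithelial markers moved with the MLCs group. It was 662 to 782 normalized counts in MLCs and 3.57 to 8.65 in APCs, with means of 45.1 in FIPs and 126 in SMCs. Cldn3 was 77.28% of it in MLCs. All 3 markers tested were called higher in MLCs than in APCs (17.7% of all genes), FIPs (18.6%) and SMCs (14.4%). Esrp1, which was not tested, had means of 1.22 in MLCs and 3.73 in SMCs. The neuronal sum (1152 to 1201 in MLCs, 72.7 to 140.1 in APCs) rested on Stmn2, which was 97.0% of it in MLCs. Of its 4 tested markers, 3 were called higher in FIPs than in MLCs (12.5% of all genes). The macrophage sum (2357 to 2909 in MLCs, 531 to 1278 in APCs) rested on Csf1r, 83.5% of it in MLCs, while the pan-leukocyte gene Ptprc had means of 5.36 in MLCs and 4.36 in APCs. The part of these markers in the MLCs values was not tested.

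The clustered protocadherins are described apart because their annotated exons and sequences overlap. In GENCODE vM21 a median of 44.7% (27.8 to 66.8%) of a Pcdhg gene's exon bases lie in other members, and 53.5% for Pcdha, since isoforms share 3′ exons. For Pcdhb genes, which are single-exon genes, the median was 0 and the highest 9.7%, but a median of 4.25% of their 50-base words occurred in another member. With overlap by any annotated gene counted, the range for Pcdhg was 31.5 to 100% (median 45.3%), and the highest value for Pcdhb 63.5%. How the authors assigned such reads is not given in the sources used here, so single Pcdha and Pcdhg values are uncertain. Of the 58 genes 44 were tested: 21 of 22 Pcdhb, all 22 Pcdhg, and of 14 Pcdha only Pcdhac2.

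Pcdhb genes were uniformly low in MLCs. All 21 tested were called lower in MLCs than in APCs (11.8% of all genes), FIPs (12.5%) and SMCs (13.5%). In each case every MLCs library was below every library of the other population. The share of all genes separated in this way was not counted, so that separation is a description only. The median log2 fold changes were 2.72 for APCs over MLCs, 2.72 for FIPs over MLCs and -3.12 for MLCs over SMCs. With a pseudocount of 8 or equal library totals, 20 of 21 were called against APCs and SMCs, and after quantile normalization 20 against SMCs. The 22 Pcdhb values summed to 286, 320.5, 313 and 274 normalized counts in MLCs. The sums were 1715, 1782, 1852 and 1816 in APCs, 1722, 1595, 1798 and 1779 in FIPs and 2458, 2667, 2342 and 2221 in SMCs. SMCs had the highest sums and MLCs the lowest, without overlap, and APCs and FIPs overlapped. The mean sum of MLCs was 16.7% of that of APCs and 12.3% of that of SMCs. Between APCs and FIPs, and between APCs and SMCs, 0 of the 21 were called in limma (10.4% and 17.2% of all genes), and 0 by edgeR or DESeq2. At an unadjusted p under 0.05 limma gave 3 and 7 in these pairs (48.2% and 60.6% of all genes), edgeR 2 and 8 (42.6% and 56.7%), and DESeq2 2 and 11 (42.9% and 55.9%). In limma 2 of the 21 were called between FIPs and SMCs, both higher in SMCs (13.3% of all genes).

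**Figure D3:**
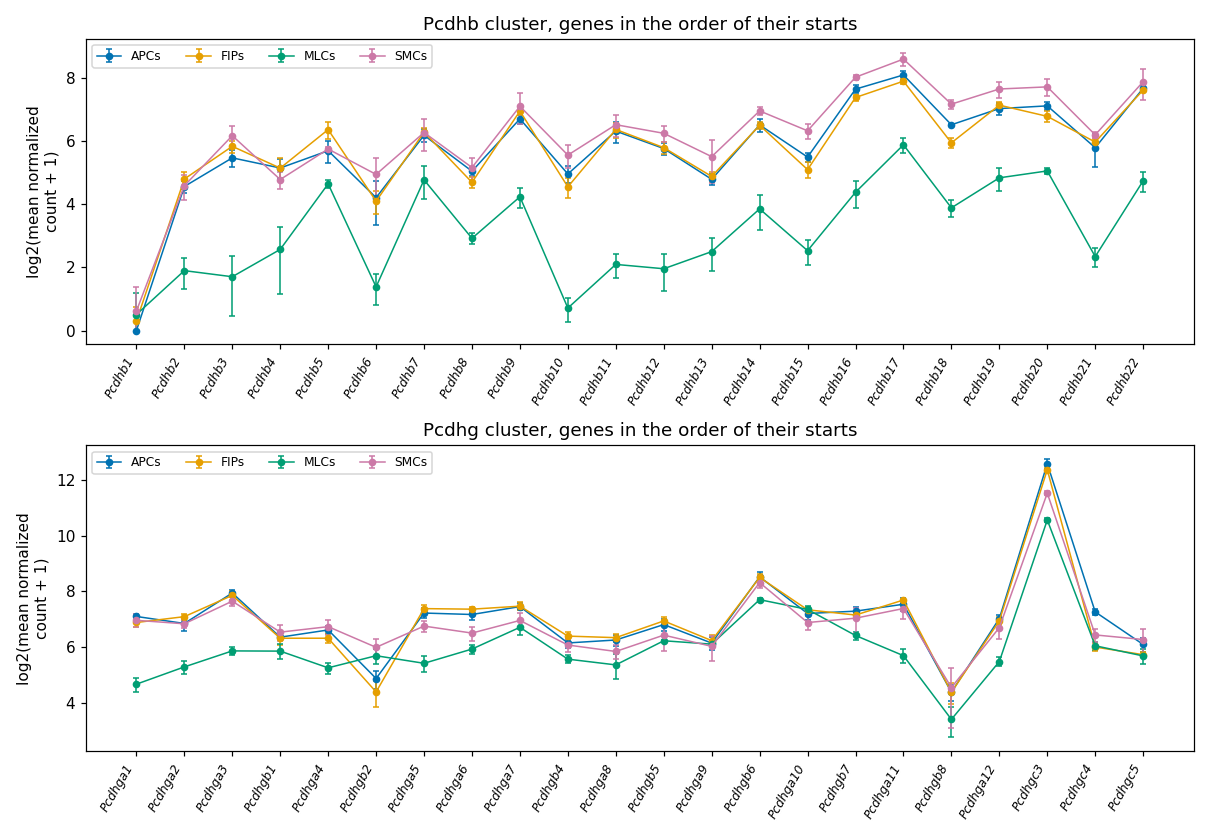
Pcdhb genes (above) and Pcdhg genes (below) along the horizontal axis in the order of their starts, with log2(mean normalized count + 1) of each population on the vertical axis; lines join genes of 1 population and error bars span the mean minus and plus 1 SD of 4 libraries. The MLCs line runs below the others for all tested Pcdhb genes, and in the Pcdhg cluster it meets or crosses them at Pcdhga9, Pcdhga10, Pcdhgb2 and Pcdhgc4.

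Of the most abundant Pcdhb genes by mean over all libraries, Pcdhb17 held 52.8, 71.9, 51.6 and 56.3 normalized counts in MLCs, and 253, 257, 270.2 and 313 in APCs. FIPs held 244, 214, 246 and 248 and SMCs 331, 428, 446 and 345. MLCs were below all others, with a log2 fold change of APCs over MLCs of 2.22 (SE 0.12, adjusted p = 4.87e-12) in limma. For Pcdhb22 the means were 204 ± 15.3 (APCs), 196 ± 8.97 (FIPs), 25.8 ± 5.78 (MLCs) and 235 ± 76.5 (SMCs), and for Pcdhb16 199.9 ± 16.9 (APCs), 166 ± 11.1 (FIPs), 19.9 ± 5.94 (MLCs) and 260.1 ± 13.6 (SMCs). At the low end, Pcdhb10 had 3 reads in all MLCs libraries against 122 in APCs, a ratio of 47.7 for APCs over MLCs with a 95% counting interval of 15.9 to 234.

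Pcdhg genes differed less evenly. Of 22 tested, 11 were called lower in MLCs than in APCs (11.8% of all genes), 11 lower (12.5%) and 1 higher (18.6%) than in FIPs, and 7 lower than in SMCs (13.5%). The medians were 0.98 for APCs over MLCs, 0.92 for FIPs over MLCs and -0.59 for MLCs over SMCs. The members of the A, B and C subfamilies counted apart: against APCs, 8 of 12 Pcdhga, 1 of 7 Pcdhgb and 2 of 3 Pcdhgc genes were called lower in MLCs, beside the same 11.8% of all genes. Whether the clusters or subfamilies differ in this was not tested. After quantile normalization 13 were lower than in APCs and 15 lower than in FIPs. Of all genes called, 49.79% were then higher in APCs than in MLCs (40.0% before) and 49.33% higher in FIPs than in MLCs (40.16% before). Pcdhga1, Pcdhga2, Pcdhga3, Pcdhga4, Pcdhga5, Pcdhga11 and Pcdhga12 were the 7 called lower in MLCs against all 3 populations (7.89% of all genes). Pcdhga3 means were 244 ± 17.01 (APCs), 230.4 ± 24.4 (FIPs), 56.96 ± 5.38 (MLCs) and 199 ± 24.4 (SMCs), while Pcdhga10 means were 146 ± 20.8 (APCs), 161 ± 9.700 (FIPs), 162 ± 15.5 (MLCs) and 117 ± 21.1 (SMCs) and no pair of Pcdhga10 was called. Other annotated genes overlap 100% of the exon bases of Pcdhga10 (44.9% for Pcdhga3), so its values may not be its own. Pcdhgb2 ran the other way, with 23.7, 26.8, 13.4 and 15.4 in FIPs, 21.97, 24.2, 30.02 and 36.3 in APCs, 50.3, 45.7, 63.4 and 42.3 in MLCs and 46.3, 58.7, 81.1 and 63.4 in SMCs. MLCs and SMCs overlapped, and both were above all FIPs and APCs libraries. On the log2 scale FIPs over SMCs was -1.63 (SE 0.25, adjusted p = 1.79e-05) in limma.

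Pcdhgc3, a C-type isoform that lies outside the stochastic choice of the others, held most of the Pcdhg sum. Its normalized counts were 5934, 6826, 6652 and 5245 in APCs, 5032, 5119.9, 5754 and 5346 in FIPs, 3113, 2844, 2831 and 3056 in SMCs and 1512, 1412, 1567 and 1571 in MLCs. MLCs were lowest and SMCs next, without overlap, and APCs and FIPs overlapped. The log2 fold changes over MLCs were 2.02 (SE 0.072, adjusted p = 4.3e-15) for APCs and 1.81 for FIPs in limma, both called, and SMCs over MLCs (0.97, SE 0.072, adjusted p = 5.93e-10) missed the fold threshold, passing it after quantile normalization (-1.02 for MLCs over SMCs). APCs over SMCs (1.05) was called, and was 0.999 without APCs replicate 2. Its share of the summed Pcdhg values was 69.3 ± 2.48% (APCs), 66.8 ± 0.58% (FIPs), 52.6 ± 1.12% (MLCs) and 56.3 ± 2.65% (SMCs), as mean ± SD with n = 4. Without Pcdhgc3, the Pcdhg sums were 2709 ± 69.8 (APCs), 2645 ± 154 (FIPs), 1367 ± 26.3 (MLCs) and 2301 ± 243 (SMCs). Pcdhgc4, a C-type isoform essential for some interneurons, was higher in APCs, with 161, 149, 135 and 164, than in FIPs, with 72.2, 57.3, 60.1 and 61.7, by 1.26 (SE 0.14, adjusted p = 4.96e-07) on the log2 scale in limma, without overlap. It was the 1 clustered gene called between APCs and FIPs. Pcdhgb6, the second most abundant, was under the fold threshold in each pair, with means of 366 ± 48.8 (APCs), 361 ± 29.7 (FIPs), 207 ± 11.3 (MLCs) and 318 ± 43.6 (SMCs).

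**Figure D4:**
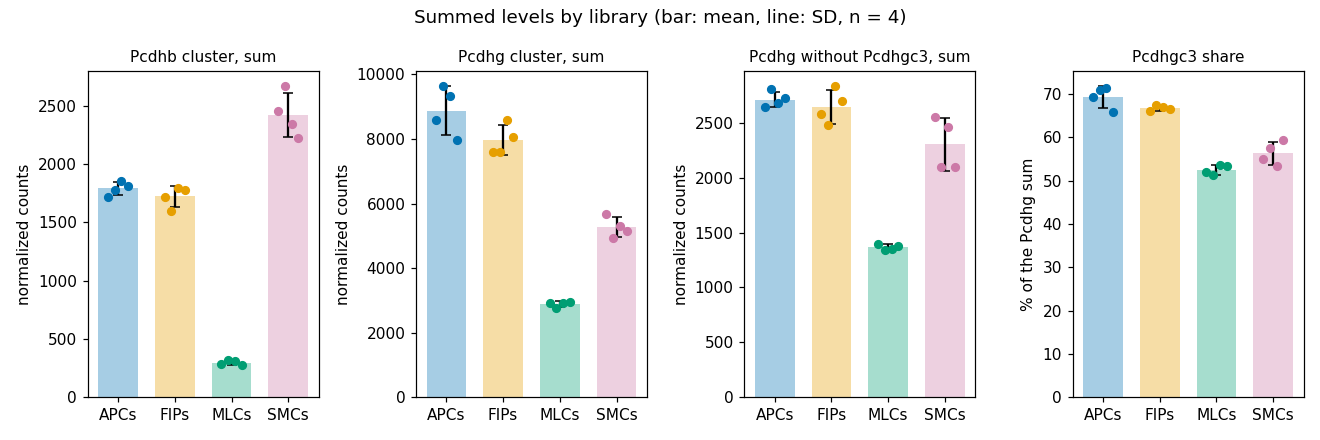
Summed normalized counts of the Pcdhb cluster, the Pcdhg cluster and the Pcdhg cluster without Pcdhgc3, and the share of Pcdhgc3 in the Pcdhg sum in %, by population; points are libraries, bars means and lines 1 SD (n = 4). MLCs have the lowest sums in each panel, and the Pcdhgc3 share is highest in APCs and FIPs.

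Pcdha genes were scarcely read: the 14 summed to means of 11.04 ± 3.92 (APCs), 21.4 ± 3.38 (FIPs), 20.01 ± 2.15 (MLCs) and 21.1 ± 9.26 (SMCs) normalized counts. Pcdhac2, a C-type isoform, was the only one tested, with 15.1, 18.6, 10.3 and 17.6 in MLCs, 2.11, 8.54, 6.41 and 4.09 in SMCs, 1.98, 0.92, 0 and 3.63 in FIPs and 2.54, 1.01, 0.71 and 0 in APCs. Every MLCs library was above every other library. Pcdhac2 passed the filter through MLCs alone, where it was high, so its calls for MLCs are no support and those values are a description. SMCs exceeded FIPs by 1.35 (SE 0.54, adjusted p = 0.0423) on the log2 scale in limma, a call lost without FIPs replicate 2 (-1.27 for FIPs over SMCs) or 3 (-0.96) or SMCs replicate 2 (-1.11), 3 (-1.23) or 4 (-1.41), and with the replicate number as a block (adjusted p = 0.0555). The call of SMCs over APCs was lost without SMCs replicate 2 (-1.39 for APCs over SMCs), and with APCs replicate 4 and SMCs replicate 3 both left out (-1.21). It was also lost after quantile normalization (-0.32) and with a pseudocount of 8 (-0.53). In edgeR and DESeq2 neither call stood: adjusted p was 0.0678 and 0.0622 for APCs and SMCs, and 0.097 and 0.0917 for FIPs and SMCs. Means of Pcdha5 were 2.73 (APCs), 5.88 (FIPs), 0.429 (MLCs) and 4.74 (SMCs), and of Pcdha10 3.39 (APCs), 6.32 (FIPs), 0.184 (MLCs) and 1.32 (SMCs). Across the 3 clusters, 33 of 44 tested genes were called between APCs and MLCs (29.6% of all genes), 34 between FIPs and MLCs (31.1%) and 29 between MLCs and SMCs (27.9%). In the other pairs 4 were called between FIPs and SMCs (17.9% of all genes), 3 between APCs and SMCs (17.2%) and 1 between APCs and FIPs (10.4%).

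Genes that act with cadherins were read from lists. Of 10 tested genes of the cadherin-catenin complex, 7 were higher in MLCs than in APCs (17.7% of all genes), 6 higher than in FIPs (18.6%) and 2 higher than in SMCs (14.4%), the last being near the share over all genes. Afdn (afadin, which links nectins and actin) had means of 1659.7 ± 92.2 (APCs), 1121 ± 43.5 (FIPs), 5026 ± 127 (MLCs) and 2776 ± 251 (SMCs), with a log2 fold change of MLCs over FIPs of 2.17 (SE 0.061, adjusted p = 9.28e-17) in limma. Jup (plakoglobin) and Pkp4 (a p120-related catenin) were above FIPs in MLCs by 1.697 and 1.69 on the log2 scale. Of the cadherins left out by the rule, Cdh3 (P-cadherin) had means of 2.400 (APCs), 5.23 (FIPs), 1532 (MLCs) and 90.9 (SMCs), Cdh1 (E-cadherin) 1.48 (APCs), 7.25 (FIPs), 38.1 (MLCs) and 13.5 (SMCs) and Cdh5 (VE-cadherin) 124 (APCs), 90.9 (FIPs), 129 (MLCs) and 1698 (SMCs). The nectins, immunoglobulin-like adhesion proteins of the same junctions, split: Nectin2 was higher in MLCs than in FIPs (log2 fold change 1.99), while Nectin1 and Nectin4 were lower (-2.96 and -3.88).

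Of 7 tested transcription factors of epithelial-mesenchymal transition, most of which repress Cdh1, 5 were lower in MLCs than in APCs (11.8% of all genes), 4 lower than in FIPs (12.5%) and 5 lower than in SMCs (13.5%). Zeb2 means were 7453 ± 108 (APCs), 7738 ± 199.5 (FIPs), 936 ± 64.2 (MLCs) and 4553 ± 580.1 (SMCs), and its log2 fold change of FIPs over MLCs was 3.05 (SE 0.072, adjusted p = 6.69e-18) in limma. On the log2 scale Twist2 was 2.86 higher in SMCs than in MLCs, and Zeb1 1.44 higher in FIPs than in MLCs. Of 7 tested proteases that shed or process cadherins, Adam10 was higher in MLCs than in APCs (log2 fold change 1.14), and Adam9 and Mmp14 lower than in FIPs (-1.72 and -1.42). In the WAVE complex, 10 of whose genes were tested, Wasf1 was higher in MLCs than in APCs (2.92) and Wasf3 lower than in FIPs (-3.47), while Abi2 was under the fold threshold (-0.72). Of 17 tested other genes of the superfamily, 8 were higher in MLCs than in APCs (17.7% of all genes) and 5 lower (11.8%). Celsr1 and Celsr2, cadherins of planar polarity, were higher in MLCs (6.08 over APCs and 5.31 over FIPs), and Dchs1, which binds Fat4, was lower than in SMCs (-2.47).

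Genes known to control promoter choice in the protocadherin clusters, such as Ctcf, Smchd1 and the cohesin subunits, did not pass the fold threshold. In limma 0 of 11 were called in any pair, beside 42.5% of all genes called in at least 1. At an unadjusted p under 0.05, with no fold threshold, 10 differed between MLCs and SMCs (68.3% of all genes), 5 between APCs and MLCs (69.9%) and 7 between FIPs and MLCs (69.6%). edgeR and DESeq2 on recovered reads called 0 too, and limma on equal library totals called 1, higher in MLCs than in FIPs. The value with the smallest adjusted p was that of Rad21, a cohesin subunit, at 0.69 (SE 0.062, adjusted p = 8.02e-09) for MLCs over SMCs. Stag2, another cohesin subunit, was -0.705 for MLCs over APCs, and Smc1a 0.398 over FIPs.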

How the data were processed

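The authors deposited 1 table of normalized counts for 27179 rows and 16 libraries, a signal made by dividing each library's counts by 1 size factor. HISAT2 2.0.1, Trim Galore 0.4.1, DESeq2 1.6.3, featureCounts 1.4.6, GRCm38 and mm10 are named, without roles, per the submitters' processing notes. The annotation, strandedness and handling of reads that fit several genes were not given in the sources used here. Total RNA was extracted with a column kit and made into libraries with NEBNext Ultra II, per the labels' protocols. The columns headed SMLCs were taken as the smooth muscle libraries of the same replicate number. Rows without a symbol (1275, at most 0.135% of a library's values) were kept, and those that passed the filter were tested and counted among all genes.

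The values of the 16 libraries were whole multiples (100% within 0.01) of 1 step per library, which recovers reads. For FIPs replicate 1 and APCs replicate 2 the step lay near 1 and they were left out of the count tests. limma 3.58.1 (R 4.3.3) was fitted to log2(value + 1) with all 4 populations in 1 model and a mean-variance trend, two-sided, over 15024 genes with at least 10 in at least 4 libraries, so fold changes understate those of low genes. edgeR 4.0.16 and DESeq2 1.42.0 on recovered reads, other pseudocounts, filters, scalings and left-out libraries were alternatives. The fits were tested on simulated data. Members, lists and tests were chosen with earlier results of these data known. Unclustered genes are given by library where the highest population mean was at least 100, or at least 50 with a call, and otherwise by means, with the 3 most abundant of each cluster and up to 3 genes per list with the smallest adjusted p. Library values of Cdh12, Cdh17, Cdh19, Pcdhgb2 and Pcdhgc4, and the mention of Pcdhb10 and Pcdhga10, were chosen after their values were seen.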

Additional observations from a re-analysis of the deposited data

Results flagged for a closer look

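Among 116 groups of 4 libraries tested, 9 held a library far from the other 3, where chance gives about 1 in 20. Among the abundant Pcdhb genes, Pcdhb22 in SMCs replicate 1 was 349.6 normalized counts, against 188.9 to 207.1 in the other SMCs libraries, and Pcdhb17 in FIPs replicate 2 was 214.5, against 244.4 to 247.6. SMCs replicate 1 also stood apart for Cdh6, at 103.2 against 49.05 to 55.51, and for Pcdh11x, at 42.12 against 27.75 to 28.61. Cdh2 in APCs replicate 4, 1 of the 2 shallowest libraries, was 169.5 against 94.66 to 100.8. Cdh13 in MLCs replicate 4 was 21.13 against 13.41 to 14.38. Pcdh15 was 298.5 in MLCs replicate 2 against 275.5 to 276.6, and 1.43 in APCs replicate 3 where the other APCs libraries were at 0. Pcdha10 was 0.738 in MLCs replicate 3 and 0 in the other MLCs libraries, which is a difference of about 1 read.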

How the results depend on the processing

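Of 107 called differences of named genes, 79 kept their call under every alternative in which the gene was tested and 28 lost it under at least 1. Cdh12 and Pcdhac2 left the test without any 1 MLCs library, and Cdh17 without any 1 SMCs library. Of 91 that were not called, 75 stayed uncalled and 16 were called under at least 1. No direction of a called value was reversed. With the filter at 50 in 4 libraries, which left 17 unclustered genes, the calls were 4 between APCs and FIPs (9 before), 6 between APCs and SMCs (10), 7 between FIPs and SMCs (13) and 11 between MLCs and SMCs (20), as fewer genes were tested. Without a fold threshold 14 were called between APCs and FIPs. With 1 library left out, the counts of unclustered genes called ranged from 9 to 10 between APCs and FIPs, 17 to 20 between APCs and MLCs, 7 to 10 between APCs and SMCs, 16 to 18 between FIPs and MLCs, 11 to 13 between FIPs and SMCs and 18 to 20 between MLCs and SMCs, and of clustered genes called anywhere from 32 to 35. With the replicate number as a replicate block the counts were 9, 18, 10, 17, 13 and 20, and 35 of the clustered genes, as without it, and of the named genes only the Pcdhac2 call between FIPs and SMCs was lost. The correlations of same-numbered libraries were -0.034 to 0.171, not every library correlated best with its own number, and the numbers were not read as pairs. With equal library totals, the all-gene median log2 difference became 0.23 (APCs over FIPs), -0.35 (FIPs over MLCs), -0.23 (FIPs over SMCs), 0.15 (MLCs over SMCs) and -0.11 (APCs over MLCs). Among all genes called, the first population was the higher one in 67.51% (50.13% before) for APCs and FIPs, and in 28.59% (40.16% before) for FIPs and MLCs. After quantile normalization this share was 44.5% (21.97% before) for APCs and SMCs, and 45.61% (25.66% before) for FIPs and SMCs. Depth limits genes under about 10 counts, whose values rest on few reads.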
